A study of Mus musculus with 21 samples.

Results

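The genes described here encode PAN2 and PAN3, subunits of a poly(A) nuclease, and the poly(A) nuclease PARN, together called the nuclease genes below. The others encode the cytoplasmic poly(A)-binding proteins PABPC1 and PABPC4, and the BTG/TOB proteins TOB1, TOB2, BTG1, BTG2 and BTG3. All 10 were chosen by name, by a rule that uses no measured value, but with earlier results of these data known. They stand for nucleases or nuclease subunits outside the CCR4-NOT complex, proteins that coat the tail, and adaptors that join tail and nuclease. Each symbol was matched to 1 gene of the deposited count tables, so all 10 of 10 genes were found among 51467 genes, and all 10 were among the 14518 genes tested.

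The study labelled mouse embryonic stem cells (ESCs) with 4-thiouridine (4sU), a uridine analogue that RNA takes up while it is made, and sequenced the labelled RNA beside total RNA. There were 3 cultures of wild-type (WT) ESCs and 4 of *Ddx6* knockout (KO) ESCs, the latter from 2 clones with 2 cultures each. All 7 cultures grew in serum with LIF and the inhibitors PD0325901 and CHIR99021, and all received 500 µM 4sU for 30 min, so no culture was left unlabelled. The RNA of a culture was divided into a 4sU and a total RNA library, which gave 14 libraries with 2441639 to 3570192 counts for 4sU and 5724179 to 7369651 for total RNA. The knockout lines were made from the V6.5 ESC line with Cas9 and a single guide and grown from sorted cells, so each is 1 clone.

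Poly(A) tails protect mRNAs and help them to be translated, and their removal is the step that commits most mRNAs to decay. PAN2-PAN3 trims long tails, CCR4-NOT removes the remainder, and DDX6 is an RNA helicase of P-bodies that binds CCR4-NOT and represses translation. PABPC proteins coat the tail. TOB1 and TOB2 hold CCR4-NOT and PABPC at the same time, and the BTG proteins bind the same CCR4-NOT nucleases through a related domain. These proteins regulate the lifetime of other mRNAs, while the measurements below concern the lifetime and level of their own.

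Gene positions below are those of the count tables in GRCm38. Levels are given as CPM, counts scaled to a common library size, with a TMM factor that sets the bulk of genes equal between libraries. Nascent RNA was measured in the 4sU libraries and mRNA in the total RNA libraries. A change in mRNA stability is a change in the ratio of total to 4sU RNA, which is the interaction of genotype and assay in 1 model. Changes are log2 fold changes of *Ddx6* KO over WT with their standard error (SE), from the quasi-likelihood test of edgeR with Benjamini-Hochberg adjustment over all 14518 genes. A change was called at an adjusted p under 0.05. All values are relative to the other genes of a library, and in such bulk samples fewer cells of a type and less RNA per cell cannot be told apart.

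*Ddx6* itself lay between 335 and 393 CPM in the WT total RNA libraries, at 57.5 and 68.0 CPM in those of clone 1, and at 23.2 and 21.6 CPM in those of clone 2. Its mRNA fell by 3.12 ± 0.32 (SE, adjusted p = 9.22e-06), while its nascent RNA differed by -0.41 ± 0.32 (adjusted p = 0.348). The clones differed from each other in *Ddx6* mRNA by 1.49 ± 0.11 with clone 1 higher (adjusted p = 1.01e-15). They also differed in its nascent RNA, where clone 2 minus clone 1 was -0.56 ± 0.09 (adjusted p = 9.38e-05). Against WT, its nascent RNA differed by -0.15 in clone 1 alone (adjusted p = 0.151) and by -0.71 in clone 2 alone (adjusted p = 2.54e-09). All *Ddx6* KO cultures lay below WT in it. The 6 naive ESC markers *Pou5f1*, *Sox2*, *Nanog*, *Zfp42*, *Esrrb* and *Klf4* summed to 3075 to 3190 CPM in WT and 3588 to 3810 CPM in *Ddx6* KO total RNA. In mRNA 4 of them rose and 0 fell, against 19.5% and 31% of all tested genes. In nascent RNA 4 rose and 1 fell, against 20.6% and 21%. The 1 that fell was *Sox2*, by 0.65 ± 0.05 (adjusted p = 6.95e-16), while its mRNA differed by -0.05 ± 0.05 (adjusted p = 0.49). The 4 primed markers *Fgf5*, *Otx2*, *Pou3f1* and *Dnmt3b* summed to 141 to 154 and 80.4 to 91.7 CPM. In mRNA 3 of the 3 tested fell, where 31% of all tested genes fell. The 4 fibroblast markers *Col1a1*, *Col1a2*, *Col3a1* and *Thy1* summed to 3.35 to 5.76 and 10.7 to 12.7 CPM. The 2 tested, *Col1a1* and *Thy1*, rose in mRNA, where 19.5% of all tested genes rose. In total RNA, *Col1a2* and *Col3a1* had 0 counts in WT. They stayed near 0 in *Ddx6* KO, with 1 to 2 and 0 to 1 counts in a library. Whether cells of these types had a part in the changes below was not tested.

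The genes differ in how much sequence their 3′ UTRs hold for regulators of decay. ESCs are rich in microRNAs of the ESCC family, which share the seed in capitals. In the RefSeq set used here, 5 mature mouse microRNAs carry it, and the following pair is shown because its targets were a subject of the study.
miR-294-3p: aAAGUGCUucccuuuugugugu
miR-302b-3p: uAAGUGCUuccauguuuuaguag
The complement of the seed's first 6 bases, GCACTT, and the longer form AGCACTTA, which contains it, were searched on the transcribed strand of the principal transcript of each gene in GRCm38 (Gencode M21), together with the AU-rich heptamer TATTTAT and the Pumilio motif TGTANATA. Of 12082 tested genes with a 3′ UTR, 31.2% held GCACTT, 3.35% AGCACTTA, 28.5% TATTTAT and 25.2% TGTANATA.

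Among the 10 genes, *Pan3*, *Tob2*, *Btg2* and *Btg3* held TATTTAT, *Pan3*, *Tob2*, *Btg1* and *Btg3* held GCACTT, *Btg1* held AGCACTTA 1 time and TGTANATA 2 times, and *Pan2*, *Parn*, *Pabpc1*, *Pabpc4* and *Tob1* held none of the 4 letter strings. The windows below are those of the genes with the largest stability changes and of *Btg1*, which has the longest 3′ UTR with 4166 bases. For *Btg1*, a TGTANATA match at chr10:96619153-96619182 and a GCACTT match at chr10:96620118-96620147 are not printed. Capitals mark the match.
Pan3, chr5:147547930-147547958, plus strand: gctttgttttaTATTTATttttcatttca
Pan3, chr5:147547042-147547071, plus strand: gacagactccaaGCACTTgcaactgatgtt
Tob2, chr15:81849860-81849888, minus strand: tatcacctgctTATTTATgtacgaggttg
Tob2, chr15:81850125-81850154, minus strand: atagggaggttaGCACTTtttctaattgga
Tob2, chr15:81849708-81849737, minus strand: gcagagggagctGCACTTttgttttgacca
Btg1, chr10:96619134-96619163, plus strand: gacttttacctAGCACTTAaaatgtataaa
Btg1, chr10:96622021-96622050, plus strand: agtaattttgcTGTAAATAttaacggggtt
*Pan3* and *Tob2* thus carried the same 2 kinds of short match in their 3′ UTRs of 2115 and 2457 bases. Of tested genes with 3′ UTRs of like length, 42.2% and 45.5% held TATTTAT and 45.9% and 52.9% held GCACTT. For *Btg1*, 9.71% of genes of like 3′ UTR length held AGCACTTA and 53.7% TGTANATA. In *Btg3*, TATTTAT occurred 2 times within 439 bases, where 13.3% of genes of like length held it. A match is a string of letters and was not tested as a binding site.

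In WT cells the 3 groups of genes stood in different parts of the range of total to 4sU RNA. The ratio was highest for the nuclease genes and lowest for the BTG/TOB genes, with the PABPC genes between them. The log2 ratio was 1.46 ± 0.22 (SD, n = 3) for *Pan2*, 1.05 ± 0.17 for *Pan3* and 0.66 ± 0.19 for *Parn*, at percentiles 89.8, 80.0 and 68.3 of all tested genes. *Pabpc4* had -0.79 ± 0.09 and *Pabpc1* -1.16 ± 0.06, at percentiles 29.8 and 24.2. Below them lay *Tob2* at -1.68 ± 0.11, *Btg2* at -1.75 ± 0.08, *Tob1* at -2.36 ± 0.11, *Btg1* at -3.0 ± 0.21 and *Btg3* at -3.23 ± 0.60, which were percentiles 17.7, 17, 10.5, 4.90 and 3.58. Every nuclease gene was above the median of all tested genes of 0.07, and all 7 other genes were below it. *Tob2* and *Btg2*, and *Btg1* and *Btg3*, differed by less than the spread between cultures. The ratio is a relative measure, because 4sU and total RNA libraries were scaled to each other and label uptake also depends on the uridines of a transcript. It also rests on the sum of the first and the re-sequencing run of each 4sU library, which differed by gene. Before TMM scaling, WT *Pabpc4* had 84.2 to 105 CPM in the first run and 166 to 167 in the re-sequencing run. For *Tob2* these values were 110 to 138 and 81.7 to 84.3 CPM. The order of the genes was not examined for each run alone.

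**Figure D1:**
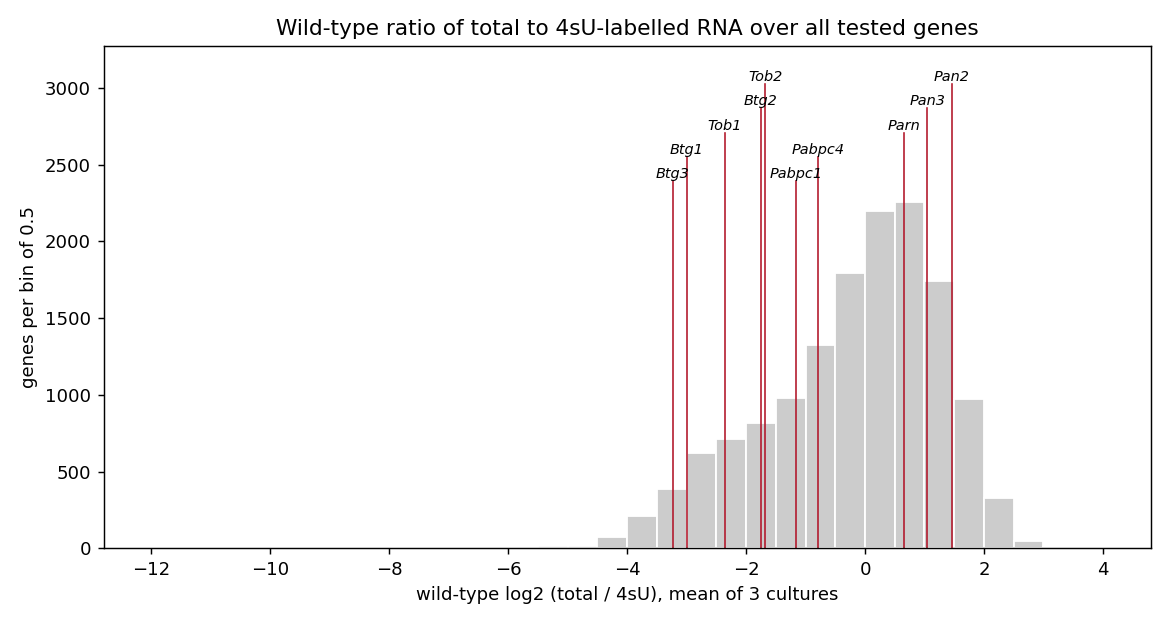
Histogram of the log2 ratio of total over 4sU RNA in WT (x axis; mean of 3 cultures) over 14518 tested genes (y axis; genes per bin of 0.5), with red lines at the 10 genes. *Parn*, *Pan3* and *Pan2* stand to the right at 0.66 to 1.46, and the BTG/TOB genes in the left tail at -1.68 to -3.23.

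The order of the genes therefore depended on the RNA that was measured. Per kilobase of exon, WT 4sU libraries held 411 ± 21.3 CPM (SD, n = 3) of *Pabpc1*, 121 ± 13.1 of *Tob1*, 75.1 ± 7.51 of *Btg2*, 42.4 ± 2.54 of *Pabpc4*, 34.4 ± 1.92 of *Btg1* and 28.3 ± 2.53 of *Tob2*. *Parn* followed with 13.1 ± 0.44 CPM per kilobase, and *Btg3*, *Pan2* and *Pan3* lay at 9.37 ± 2.31, 8.56 ± 1.64 and 7.69 ± 0.58, within each other's spread. In WT total RNA, *Pabpc1* again had the highest level with 184 ± 6.48 CPM per kilobase. *Pabpc4*, *Tob1*, *Pan2*, *Btg2* and *Parn* lay close together there, between 20.8 ± 2.05 and 24.4 ± 0.90, and neighbours in that order did not differ beyond their spread. *Pan3* had 16 ± 1.18, *Tob2* 8.70 ± 0.11, *Btg1* 4.23 ± 0.50 and *Btg3* 0.69 ± 0.29 CPM per kilobase. *Tob1* thus held more than 10 times the nascent level of *Pan2* but about the same level in total RNA.

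In *Ddx6* KO cells, nascent RNA rose for 2 of the 10 genes, *Tob1* and *Pan3*, and fell for 5, *Pabpc4*, *Pabpc1*, *Pan2*, *Tob2* and *Btg2*. Among all tested genes, 20.6% rose and 21% fell. With library-size scaling, which moved the median change of all genes by 0.21, 3 of the 10 genes rose and 2 fell. The change passed 2-fold for 1 of 10, *Pabpc4*, against 10.9% of all genes. The 4 *Ddx6* KO and 3 WT cultures did not overlap for 6 of 10, against 41.7% of all genes. The median change of the 10 genes was -0.18, and that of all genes was 0.

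For mRNA, 2 of 10 rose, *Tob1* and *Tob2*, and 5 fell, *Pabpc1*, *Pan2*, *Pabpc4*, *Pan3* and *Parn*, against 19.5% and 31% of all genes. None of the 10 passed 2-fold, which 10.1% of all genes did. The cultures did not overlap for 6 of 10, against 52.4% of all genes. The median was -0.38 for the 10 genes and -0.10 for all genes.

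For mRNA stability, 2 of 10 rose, *Tob2* and *Pabpc4*, and *Pan3* fell, against 3.79% and 8.58% of all genes. None passed 2-fold, against 1.08% of all genes. The cultures did not overlap for 5 of 10, against 22.9% of all genes. The median was -0.13 for the 10 genes and -0.09 for all genes.

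**Figure D2:**
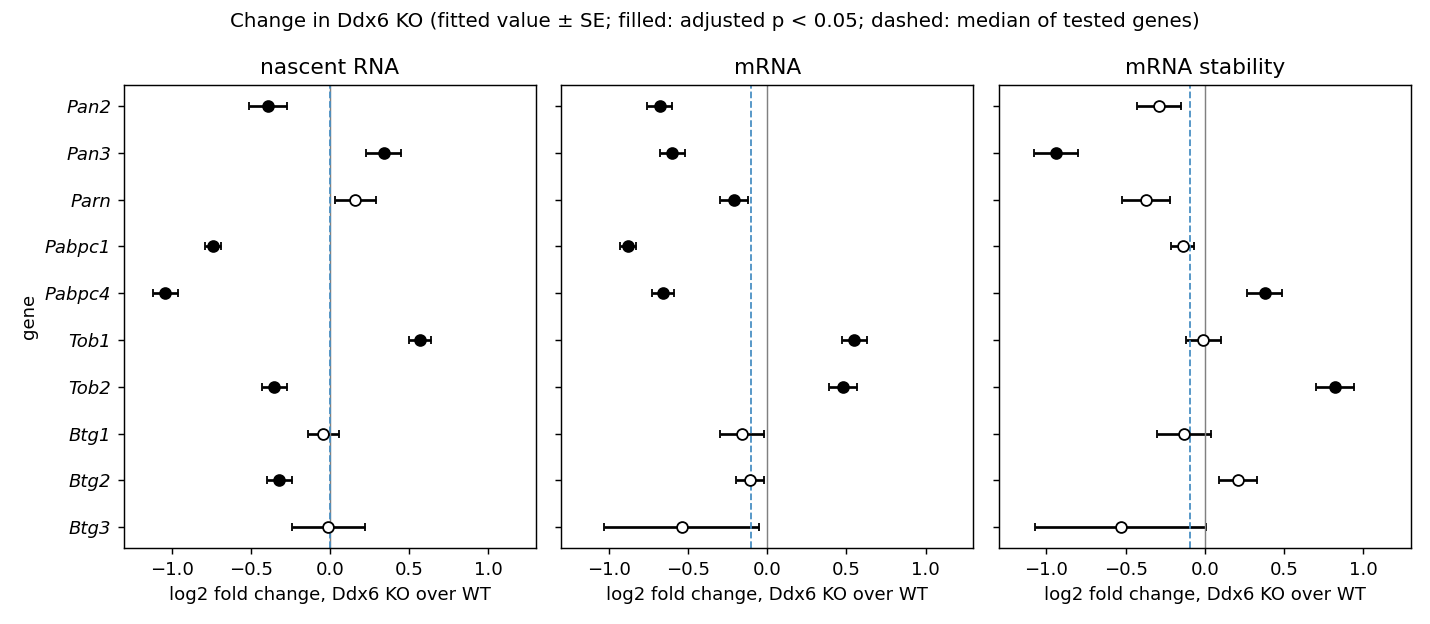
Fitted log2 fold change of *Ddx6* KO over WT (x axis) ± SE for each gene (y axis) in nascent RNA, mRNA and mRNA stability, filled where the adjusted p was under 0.05, with the median of all tested genes dashed. *Pan3* goes from 0.34 in nascent RNA to -0.60 in mRNA, and *Tob2* from -0.35 to 0.48.

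By the same edgeR test, no difference between the clones was called in any of the 10 genes, against 0.172%, 0.296% and 0.00689% of all genes in nascent RNA, mRNA and mRNA stability. At an unadjusted p under 0.05, 1 of 10 was found in each, which were *Btg2* in nascent RNA and mRNA and *Pan3* in mRNA stability. The shares above do not apply to this looser threshold, at which all tested genes were not counted. With 2 cultures a clone, smaller differences were not detectable.

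The genes of PAN2-PAN3 both fell in mRNA, and *Pan3* did so while its nascent RNA rose. *Pan3* (chr5:147430161-147548502, plus strand) encodes the subunit that holds the nuclease to PABPC and to the microRNA machinery. Its 4sU level was 48.7, 43.6 and 42.3 CPM in WT, 52.9 and 50.1 in clone 1, and 56.9 and 64.9 in clone 2. Its total RNA level was 92.3, 86.9 and 100.6 CPM in WT, 60.7 and 69.8 in clone 1, and 58.6 and 56.5 in clone 2. All 4 *Ddx6* KO cultures lay above WT in 4sU and all 4 below it in total RNA. The changes were 0.34 ± 0.11 in nascent RNA (adjusted p = 0.0119) and -0.60 ± 0.08 in mRNA (adjusted p = 3.22e-09).

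The log2-scaled total to 4sU ratio of *Pan3* was 0.91, 0.99 and 1.24 in WT, 0.20 and 0.47 in clone 1, and 0.04 and -0.20 in clone 2. Its place among all genes went from percentile 80.0 in WT to 53.4 in *Ddx6* KO. The stability change of -0.94 ± 0.14 (adjusted p = 1.05e-06) was lower than that of all but 2.84% of tested genes. The value for clone 2 minus clone 1 was -0.43 ± 0.16 and was not called (adjusted p = 1, edgeR). The nascent change was not called in either sequencing run alone (adjusted p = 0.0583 and 0.0646), in clone 1 alone (0.198), or without 1 of 3 cultures, WT culture 2 or 3 or culture 2 of clone 2 (0.0552 to 0.0647).

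*Pan2* (chr10:128303335-128321353, plus strand), the catalytic subunit, was lower in both kinds of RNA. The total RNA libraries held 107, 106 and 100 CPM in WT, 62.0 and 64.5 in clone 1, and 66.0 and 67.9 in clone 2. No *Ddx6* KO culture reached the WT range, and mRNA fell by 0.68 ± 0.08 (adjusted p = 3.25e-11). In 4sU it had 45.6, 37.4 and 31.1 CPM in WT, 25.9 and 26.6 in clone 1, and 30.3 and 32.2 in clone 2, where the highest *Ddx6* KO culture overlapped with the lowest WT culture. Nascent RNA fell by 0.39 ± 0.12 (adjusted p = 0.0096), and the ratio of total to 4sU RNA differed by -0.29 ± 0.14 (adjusted p = 0.197). For nascent RNA the exact two-sided permutation test over 3 WT and 4 *Ddx6* KO cultures gave p = 0.114. The nascent change was not called without WT culture 1 (-0.25, adjusted p = 0.152), in clone 2 alone, in either run alone, or when libraries were scaled by their size only (-0.18, adjusted p = 0.233).

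*Parn* (chr16:13537964-13668170, minus strand) encodes a nuclease that also matures small non-coding RNAs. It had 39.4, 37.7 and 36.9 CPM in WT 4sU libraries, 45.8 and 34.4 in clone 1, and 47.2 and 41.5 in clone 2. Its total RNA level was 54.0, 61.7 and 65.7 CPM in WT, 46.0 and 53.7 in clone 1, and 48.6 and 60.8 in clone 2. The groups overlapped in both. The mRNA change of -0.21 ± 0.09 (adjusted p = 0.0415) was called here but in only 4 of 17 alternative analyses, and nascent RNA (0.16 ± 0.13) and stability (-0.37 ± 0.15, adjusted p = 0.109) were not called. For mRNA the exact permutation test over cultures gave p = 0.114.

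**Figure D3:**
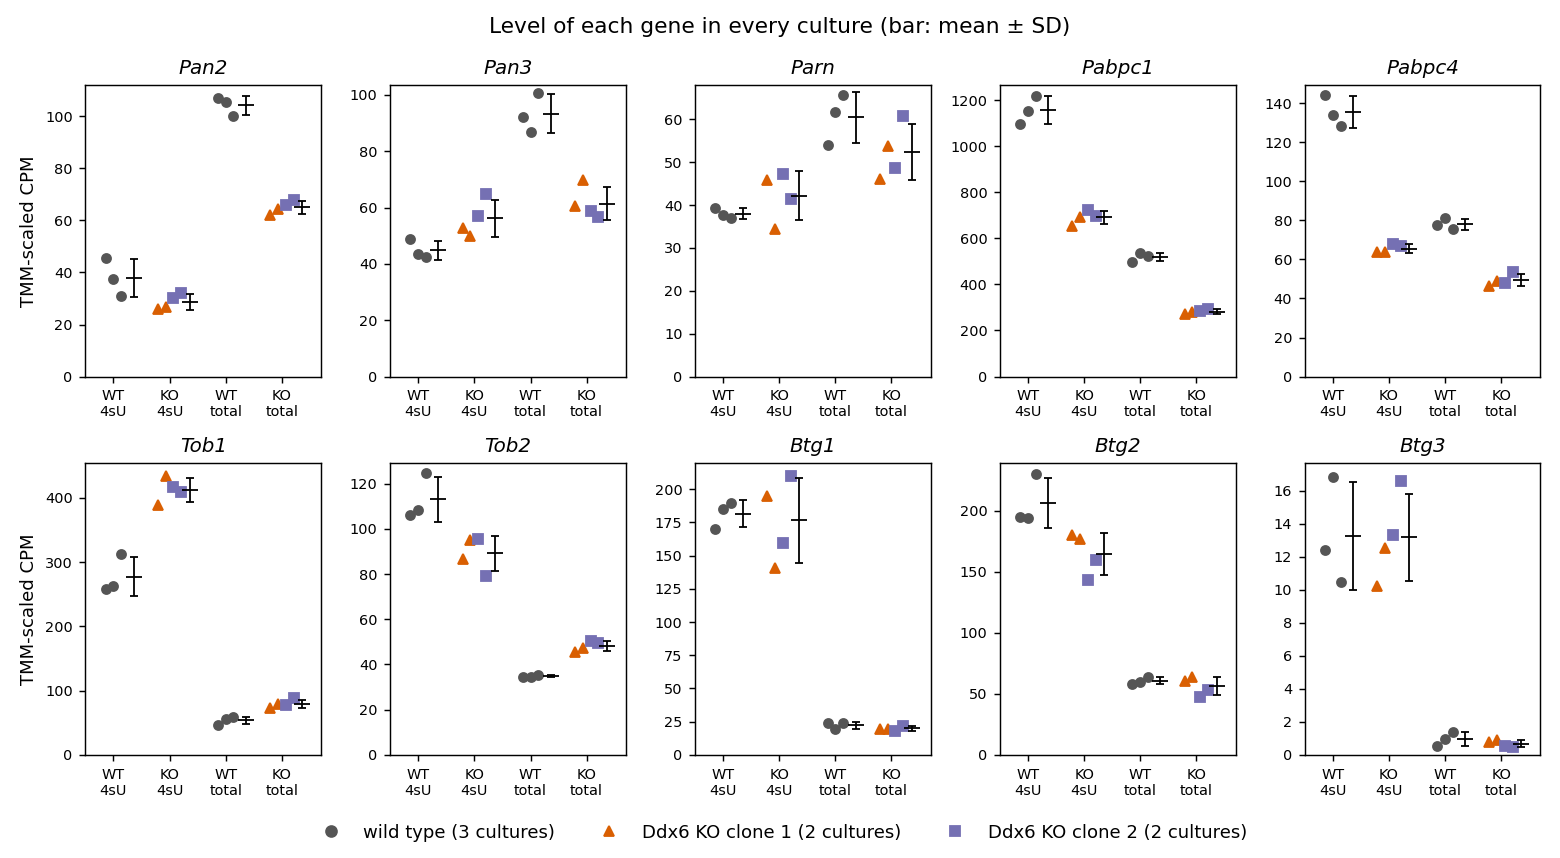
TMM-scaled CPM (y axis, each from 0) of the 10 genes in 4sU and total RNA of every culture, with WT as grey circles, clone 1 as orange triangles and clone 2 as purple squares, and mean ± SD beside them. The cultures of *Ddx6* KO lie apart from WT in both RNAs for *Pan3*, *Pabpc1*, *Pabpc4*, *Tob1* and *Tob2*, and overlap in both for *Parn*, *Btg1* and *Btg3*.

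The poly(A)-binding protein genes showed the largest falls of the 10 in nascent RNA, and *Pabpc1* also in mRNA. *Pabpc1* (chr15:36595661-36608973, minus strand) encodes the main cytoplasmic poly(A)-binding protein and was the most abundant of the 10 in every group. Its 4sU level was 1098, 1154 and 1218 CPM in WT, 652 and 692 in clone 1, and 724 and 695 in clone 2. Total RNA held 499, 534 and 523 CPM in WT, 270 and 280 in clone 1, and 285 and 293 in clone 2. Neither RNA showed any overlap of the groups, and both fell by a similar amount, nascent RNA by 0.74 ± 0.05 (adjusted p = 3e-18) and mRNA by 0.88 ± 0.05 (adjusted p = 2.51e-21). On the log2 scale, the total to 4sU ratio was -1.11 to -1.22 in WT and -1.24 to -1.34 in *Ddx6* KO, without overlap, and the fitted difference of -0.14 ± 0.07 was not called (adjusted p = 0.256). Reads that match a processed copy of a gene equally well were not counted by the authors, who kept uniquely mapped reads.

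*Pabpc4* (chr4:123282825-123298925, plus strand) encodes the second widely expressed cytoplasmic family member. In 4sU it had 144, 134 and 128 CPM in WT, 63.7 and 63.6 in clone 1, and 68.1 and 66.8 in clone 2. In total RNA it had 77.4, 81.2 and 75.5 CPM in WT, 46.4 and 49.1 in clone 1, and 48.1 and 53.7 in clone 2. The groups were apart in both, but the fall in nascent RNA of 1.04 ± 0.08 (adjusted p = 1.74e-16) was larger than that in mRNA of 0.66 ± 0.07 (adjusted p = 4.42e-11). The log2 ratio rose from between -0.90 and -0.72 in WT to between -0.50 and -0.31 in *Ddx6* KO, a stability change of 0.38 ± 0.11 (adjusted p = 0.0148). That call was lost without WT culture 1 (0.34, adjusted p = 0.0862), in either clone alone and with the re-sequencing run alone (adjusted p = 0.0601 to 0.0824). *Pabpc1* and *Pabpc4* thus fell together in level, while the stability change was called for *Pabpc4* and not for *Pabpc1*; the difference between both genes was not tested.

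The TOB genes rose in mRNA by similar amounts but differed in nascent RNA. *Tob1* (chr11:94211454-94215495, plus strand) had 258, 263 and 312 CPM in WT 4sU libraries, 389 and 435 in clone 1, and 417 and 410 in clone 2. Its total RNA level was 47.3, 55.5 and 58.6 CPM in WT, 72.9 and 78.7 in clone 1, and 77.3 and 88.3 in clone 2. All *Ddx6* KO cultures were above all WT cultures in both. Nascent RNA rose by 0.57 ± 0.07 (adjusted p = 4.46e-10) and mRNA by 0.55 ± 0.08 (adjusted p = 3.5e-08), and stability differed by -0.01 ± 0.11 (adjusted p = 0.96).

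*Tob2* (chr15:81848270-81858326, minus strand) was lower in 4sU and higher in total RNA. The 4sU libraries held 106, 108 and 125 CPM in WT, 86.8 and 95 in clone 1, and 95.6 and 79.2 in clone 2. The total RNA libraries held 34.4, 34.6 and 35.2 CPM in WT, 45.6 and 47.4 in clone 1, and 50.5 and 49.7 in clone 2. The groups did not overlap in either and stood in opposite order. Nascent RNA fell by 0.35 ± 0.08 (adjusted p = 0.000581), and mRNA rose by 0.48 ± 0.09 (adjusted p = 7.54e-06). With library-size scaling, the nascent change was -0.14 and not called (adjusted p = 0.157).

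The log2-scaled total to 4sU ratio of *Tob2* was -1.61, -1.64 and -1.81 in WT, -0.92 and -1.0 in clone 1, and -0.91 and -0.67 in clone 2. The stability change of 0.82 ± 0.12 (adjusted p = 1.66e-06) was higher than that of 95.9% of tested genes. The gene moved from percentile 17.7 of the ratio in WT to 27.1 in *Ddx6* KO. *Tob2* and *Pan3*, whose 3′ UTR windows are shown above with the same 2 letter strings, changed in opposite directions in stability. Whether these matches had a part in either change was not tested. For the stability change of each gene the exact two-sided permutation test over 3 and 4 cultures gave p = 0.0571, the smallest this design allows.

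**Figure D4:**
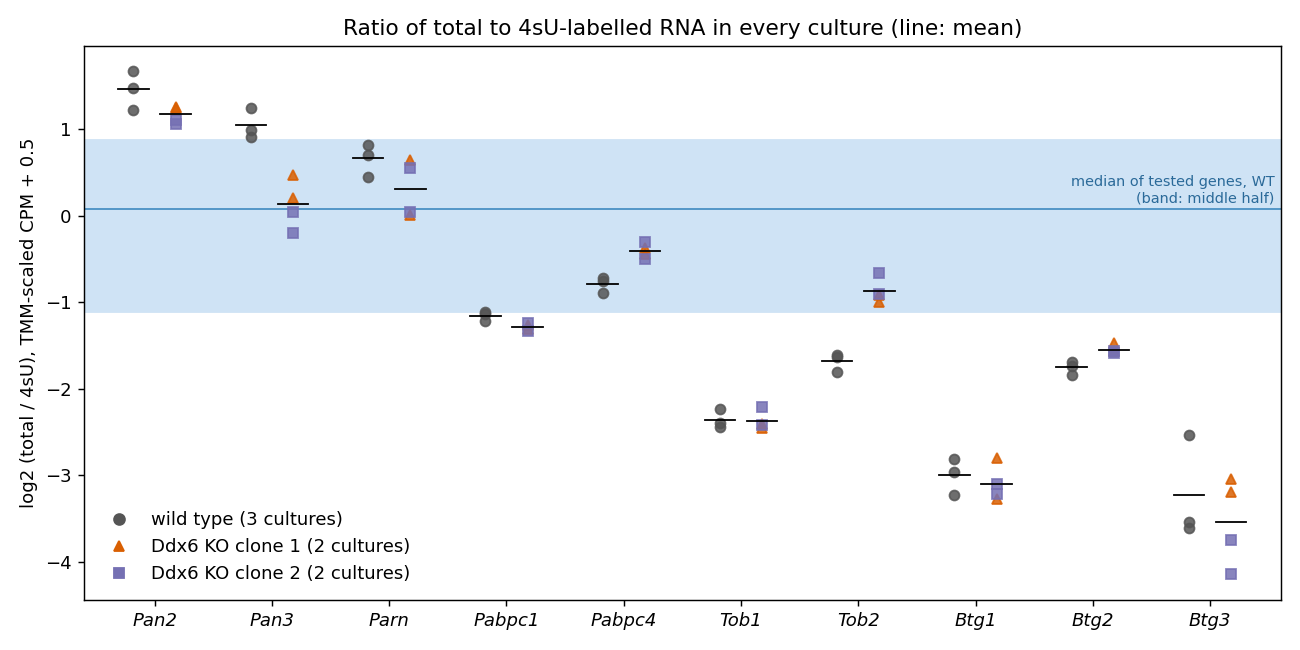
Log2 ratio of total over 4sU RNA (y axis) in every culture for each gene, with the mean as a line and the middle 50% of all tested genes in WT as a band around their median. *Pan3* lies at 0.91 to 1.24 in WT and -0.20 to 0.47 in *Ddx6* KO, *Tob2* at -1.81 to -1.61 and -1.0 to -0.67.

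Of the BTG genes, *Btg2* was called in nascent RNA and none was called in mRNA or stability by edgeR, where none had an unadjusted p under 0.05. *Btg2* (chr1:134075170-134079120, minus strand), an early-response gene induced by p53, had 194, 194 and 230 CPM in WT 4sU libraries, 180 and 177 in clone 1, and 143 and 159 in clone 2. Nascent RNA fell by 0.32 ± 0.08 (adjusted p = 0.00149) without overlap of the groups, but with library-size scaling it differed by -0.12 (adjusted p = 0.246). In total RNA, clone 1 with 60.4 and 63.4 CPM lay within the WT range of 58.1 to 63.7 CPM, and clone 2 with 47.0 and 53.4 CPM lay below it. Neither mRNA, at -0.11 ± 0.09, nor stability, at 0.21 ± 0.12, was called (adjusted p = 0.305 and 0.293). For *Btg2* mRNA the value for clone 2 minus clone 1 was -0.31 ± 0.10, which was not called (adjusted p = 0.312).

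*Btg1* (chr10:96617006-96622809, plus strand) varied more among *Ddx6* KO cultures than among WT cultures in 4sU. The values were 170, 185 and 189 CPM in WT, 195 and 141 in clone 1, and 160 and 210 in clone 2, so that the cultures of a clone lay on both sides of WT. In total RNA it had 23.8, 19.3 and 23.8 CPM in WT, 19.7 and 19.8 in clone 1, and 18.2 and 22.1 in clone 2. The changes were -0.04 ± 0.10 in nascent RNA, -0.16 ± 0.14 in mRNA and -0.13 ± 0.17 in stability, and none was called (adjusted p = 0.785, 0.353 and 0.722). Its ratio of total to 4sU RNA was at percentile 4.90 in WT and 4.08 in *Ddx6* KO. Whether the AGCACTTA and TGTANATA matches of its 3′ UTR had a part in this was not tested.

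*Btg3* (chr16:78359860-78376810, minus strand) was near the limit of detection in total RNA, with 3, 6 and 9 counts in WT and 5, 7, 4 and 3 in *Ddx6* KO. Its 4sU libraries held 28 to 46 counts in WT and 36 to 63 in *Ddx6* KO, or 10.5 to 16.9 and 10.2 to 16.6 CPM. Nascent RNA differed by -0.01 ± 0.23, mRNA by -0.54 ± 0.49 and stability by -0.53 ± 0.54, none called (adjusted p = 0.986, 0.375 and 0.599). At this depth an unchanged mRNA and a 2-fold fall could not be told apart. *Btg4*, the remaining family member, had 0 counts in all 14 libraries.

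The wider machinery of the tail gave a background for these genes, and its counts are to be read against the shares of all tested genes that rose or fell, which were 20.6% and 21% in nascent RNA, 19.5% and 31% in mRNA, and 3.79% and 8.58% in stability. Of 11 CCR4-NOT subunits, 7 rose and 1 fell in nascent RNA, 3 rose and 3 fell in mRNA, and 5 fell and none rose in stability. Without WT culture 2, the 8 nascent calls became 3. Their median stability change was -0.20, against -0.09 for all genes. *Cnot4*, which encodes a ubiquitin ligase, had the largest nascent rise with 1.00 ± 0.10 (adjusted p = 1.08e-12) and the largest fall in stability with -0.64 ± 0.13 (adjusted p = 0.000378). *Cnot3*, a structural subunit, fell by 0.29 ± 0.10 in nascent RNA (adjusted p = 0.0262). *Cnot6*, a nuclease of the complex, had the largest mRNA rise with 0.44 ± 0.07 (adjusted p = 8.98e-08), and *Cnot10* the largest fall with -0.41 ± 0.06 (adjusted p = 2.47e-07).

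Of the 6 other deadenylase genes, 1 rose in nascent RNA, 2 rose in mRNA, and in stability 1 rose and 1 fell, against the same shares of all genes. The 2 mRNA calls became 1 without WT culture 1, WT culture 2 or culture 1 of clone 2. The 2 stability calls became 0 without WT culture 2 or culture 1 of clone 1, and 1 without WT culture 1, culture 2 of clone 1 or culture 1 of clone 2. *Angel2* rose by 0.66 ± 0.12 in nascent RNA (adjusted p = 9.72e-06) and fell by 0.48 ± 0.15 in stability (adjusted p = 0.0267), and its mRNA was not called. *Pan3* had the same pair of calls, and so did *Cnot2*, *Cnot4*, *Cnot6l* and *Cnot10* of CCR4-NOT and the PABPC partner *Larp4*. Of these, *Cnot10* also fell in mRNA, as *Pan3* did. The reverse pair, a nascent fall with a stability rise, was called for *Tob2*, *Pabpc4*, *Gspt2* and *Papolb*. Nascent RNA is the denominator of the ratio, so the calls of a pair are not independent. The share of all tested genes with either pair was not counted, so no excess among these genes can be read from it. *Angel1* rose by 0.35 ± 0.13 in mRNA (adjusted p = 0.0216). *Toe1*, a nuclear deadenylase, rose by 0.40 ± 0.12 in stability (adjusted p = 0.023).

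Only 3 of the 7 other poly(A)-binding protein genes passed the filter on low counts. Of these, *Pabpc6* fell in nascent RNA by 0.61 ± 0.22 (adjusted p = 0.0195), where 21% of all genes fell and its cultures overlapped. That call was lost without WT culture 1 or 2 or either culture of clone 2, in clone 1 alone, with the re-sequencing run alone and with library-size scaling. By edgeR, none of the 3 was called in mRNA or stability, where 1 and 0 had an unadjusted p under 0.05. Among 9 partners of PABPC, 3 rose and 1 fell in nascent RNA, 3 fell in mRNA, and 1 rose and 1 fell in stability, where 4 were called with culture as a block. In mRNA 31% of all genes fell. The 4 nascent calls became 2 without WT culture 1, WT culture 2 or culture 2 of clone 1. The 3 mRNA calls became 1 without culture 1 of clone 1 or either culture of clone 2, and the 2 stability calls became 1 without WT culture 1 or 2 and 4 without WT culture 3 or culture 2 of clone 2. *Paip2b*, an inhibitor of PABPC, rose by 0.32 ± 0.08 in nascent RNA (adjusted p = 0.00122), and its relative *Paip2* fell by 0.27 ± 0.06 in mRNA (adjusted p = 0.000196). *Gspt2*, a translation termination factor, fell by 0.42 ± 0.11 in nascent RNA (adjusted p = 0.00087) and rose by 0.65 ± 0.16 in stability (adjusted p = 0.0045). *Larp4*, which binds poly(A) and PABPC, fell by 0.32 ± 0.09 in stability (adjusted p = 0.0118).

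Of 6 poly(A) polymerases and related transferases, 1 fell in nascent RNA, 1 rose and 1 fell in mRNA, and 1 rose in stability, against 21%, 19.5%, 31% and 3.79% of all genes. *Papolb* fell by 0.55 ± 0.12 in nascent RNA (adjusted p = 0.000204) and rose by 0.90 ± 0.23 in stability (adjusted p = 0.00474). In mRNA, *Papolg* rose by 0.21 ± 0.08 (adjusted p = 0.021) and *Tent2* fell by 0.29 ± 0.12 (adjusted p = 0.0395). Of these 2 mRNA calls, 0 were left without culture 2 of clone 1, and 1 without any single WT culture or without culture 2 of clone 2. The nascent count of 1 became 2 without WT culture 3, and the stability call was lost without culture 1 of clone 2. *Papolb*, *Gspt2* and *Pabpc6* are intronless relatives of other genes, and reads that match both copies equally well were not counted.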

How the data were processed

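Nascent (4sU) and total RNA of 7 mouse ESC cultures were measured. Reads were trimmed by the authors (Cutadapt 1.14) and aligned to mm10 (STAR 2.5.3a), multiply mapped reads were dropped, and strand-specific counts for the genes of Gencode M14, rRNA excluded, came from featureCounts 1.5.3. These raw counts were deposited and carry no normalization. The 4sU libraries were sequenced single-end and again paired-end, and both counts were added, as in the study. The table has 92 spike-in entries, all at 0 counts.

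A gene was tested if 3 or more libraries had 3 CPM or more. TMM factors came from all 14 libraries together, and the test was that of edgeR 4.0.16 in R 4.3.3 (robust quasi-likelihood fit; genotype, assay and interaction). This replaced the limma fit of the study, which was an alternative. Ratios used a pseudocount of 0.5 CPM. Exact permutation tests compared 3 with 4 cultures. A floor of 3 counts equals 0.792 to 1.33 CPM in 4sU and 0.394 to 0.558 CPM in total RNA libraries, and covers counting error only. The p values of edgeR rest on a spread estimated over all 14 libraries with help from the other genes. The fit took the 4sU and total library of a culture, and the cultures of a clone, as independent. Its p values can therefore lie far below 0.0571, the smallest that the exact permutation test allows. The spread within a clone may be technical.

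Sites were read from the Gencode M21 annotation of GRCm38 (the same build), and microRNAs from RefSeq. Like 3′ UTR length means within 1.25-fold. The 10 genes, the gene lists and the tests were chosen with earlier results of these data known. Besides the 10 genes and *Ddx6*, the called gene with the largest rise and the largest fall in each list and contrast was named; primed, fibroblast and naive markers were named as lists. Of the other marker genes, 1 of 3 endoderm, 1 of 2 mesoderm and 1 of 2 neural markers passed the filter, and in mRNA 1, 0 and 0 were called by edgeR, with 1, 0 and 1 at an unadjusted p under 0.05. The 4sU and total library of a culture come from the same RNA, and their deviations from the group means correlated at 0.00377 to 0.117 over genes. Alternatives were DESeq2 1.42.0, limma-voom 3.58.1, TMM within each assay, library size only, no filter, each run, each clone, replicate number or culture as a block, and each culture left out.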

Additional observations from a re-analysis of the deposited data

Results flagged for a closer look

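In 30 sets of 4 *Ddx6* KO cultures (10 genes in 4sU, total RNA and their ratio), 1 held a culture far from the other three, where chance gives about 1.5. This was the total to 4sU ratio of *Btg2* on the log2 scale, which was -1.47 in culture 2 of clone 1 and -1.57 to -1.59 in the other cultures, a gap of 0.833 of the range. The rule was run on values rounded to 2 decimals, and rounding alone could move this gap to either side of the critical value. All 4 values lay above the WT range of -1.84 to -1.69.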

How the results depend on the processing

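The calls of *Pabpc1*, *Pabpc4* and *Tob1* in nascent RNA, of *Pan2*, *Pan3*, *Pabpc1*, *Pabpc4*, *Tob1* and *Tob2* in mRNA, and of *Pan3* (-1.14 to -0.71) and *Tob2* (0.75 to 0.91) in mRNA stability kept their direction and their side of the threshold in all 17 or 18 alternatives. With a 2-fold change required as well, 1 gene was called in nascent RNA, 0 in mRNA and 0 in stability. Scaling by library size moved the median change of all genes by 0.21 in nascent RNA and 0.16 in mRNA, so directions there are relative to it; nascent RNA then rose for 3 genes and fell for 2, in place of 2 and 5. The cause was not tested.

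The changes that turned sign were not called. *Btg2* mRNA, at -0.11 in the main fit, kept its sign in clone 2 alone and was called there (-0.26, adjusted p = 0.0241, edgeR). *Btg1* nascent RNA became 0.17 by library size, 0.02 without filter, 0.06 with the re-sequencing run, 0.04 in clone 2 and 0.00 with a replicate block, and ran from -0.12 to 0.06 without 1 culture. *Btg3* nascent RNA became 0.20 by library size, 0.05 without filter, 0.04 with the first run and 0.19 in clone 2, and ran from -0.16 to 0.21 without 1 culture. *Btg2* mRNA became 0.04 by library size and 0.05 in clone 1, and *Btg3* stability 0.03 in clone 1. *Tob1* stability became 0.04 with DESeq2, 0.08 with TMM within each assay, 0.03 without filter, 0.03 with the first run and 0.05 in clone 2, and ran from -0.06 to 0.05 without 1 culture. *Parn* nascent RNA was called by library size (0.36, adjusted p = 0.0136, edgeR).

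WT and *Ddx6* KO cultures with the same replicate number correlated at -0.0578 to 0.132 in their deviations from the group means. The 4sU and total libraries of 1 culture, a known pair, reached only 0.00377 to 0.117. The check therefore cannot decide whether replicate numbers pair WT with *Ddx6* KO cultures. With the replicate block 7, 6 and 3 genes were called in nascent RNA, mRNA and stability, and with culture as a block 3 in stability, with no stability call of the 10 genes changed by it. For the lists, calls in nascent RNA, mRNA and stability ranged over alternatives that kept the threshold from 3 to 8, 5 to 7 and 4 to 6 for CCR4-NOT, from 0 to 1, 1 to 4 and 0 to 3 for other deadenylases, from 2 to 8, 1 to 3 and 1 to 5 for PABPC partners, and from 1 to 3, 0 to 4 and 0 to 2 for poly(A) polymerases; other poly(A)-binding proteins had 0 or 1 in nascent RNA and mRNA and 0 in stability. Depth limits *Btg3* most.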
